A study of Mus musculus with 8 samples.

Results

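The genes of the ligands, receptors and SMADs of transforming growth factor-β (TGF-β) signalling were examined for regions enriched for BRG1, the ATPase of SWI/SNF chromatin-remodelling complexes, in injured mouse hearts. They comprise 3 ligand genes (Tgfb1, Tgfb2 and Tgfb3), 3 receptor genes (Tgfbr1, Tgfbr2 and Tgfbr3) and 4 SMAD genes (Smad2, Smad3, Smad4 and Smad7), and were chosen by name. Each name matched a single gene of the GENCODE annotation of the mouse build mm9, giving 10 genes of 37273 genes.

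The ChIP-seq experiment compared hearts of adult C57BL/6 mice, aged 10 to 12 weeks per the labels (the methods give a somewhat older age), primed with thymosin β4 (Tβ4), a small actin-binding peptide, or with its vehicle PBS. Priming was by daily intraperitoneal injection for 1 week, at 12 mg per kg for Tβ4, and was followed by myocardial infarction (MI) by tying off the left anterior descending coronary artery for good. Tβ4 or PBS was given again on the day of surgery and 2 days later, and hearts were taken 4 days after MI. Each group had 2 BRG1 ChIP libraries and 2 input libraries, 8 in all. The values below come from the list that the authors deposited for Tβ4-primed, injured hearts, with 524614 regions called as enriched for BRG1 against input. The methods and the name of this list point to different functions of the peak caller, so that what exactly qualified a region is uncertain, and every count and covered share below depends on it. The list holds positions alone and merges the duplicates, so that its depth and the spread between replicates are unknown, and no value below has an error from replicates. PBS-primed hearts were not analysed here, and nothing below is an effect of Tβ4 or of MI. Chromatin came from heart tissue as a whole, in which the cell types that carried a region cannot be told apart.

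As background, TGF-β ligands are secreted in a latent form, bound to a propeptide, and are set free in the extracellular matrix. The active ligand brings together a type II and a type I receptor kinase. The type I receptor phosphorylates SMAD2 and SMAD3, which bind SMAD4, enter the nucleus and bind DNA with partner factors, while SMAD7 acts against the receptor. In the heart, the pathway is known for its part in fibroblast activation and scar formation after MI, and in the epithelial-to-mesenchymal transition of epicardial and endocardial cells during development.

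For each gene, the number of regions with at least 1 bp in a window, the gene body extended by 5 kb at both ends, was counted, together with the covered share, the percentage of the bases of the window that lay in regions. The same was done for the 5 kb on each side of the transcriptional start site (TSS), taken as the annotated 5′ end of the gene. Each covered share is given a percentile, its rank against the 200 genes closest in length. A gene was counted as above the middle when its percentile was above 50. In all, 202 regions lay in the 10 windows. The median covered share of the 10 windows was 29.2%, against 24.0% for all annotated genes and 25.2% for protein-coding genes. These comparison values are not matched for length. The medians of the 200 genes of like length ran from 24.8%, for Tgfb1, to 28.6%, for Smad7. Around the TSS the median of the 10 genes was 23.3%, against 21.5% for all genes and 22.2% for protein-coding genes. With 2 kb on each side of the TSS in place of 5 kb, it was 12.4%, against 14.7% for all genes.

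By role, all 3 ligand genes lay below the middle of genes of like length, both over the window and around the TSS, and 2 of them were sparsely covered for their length. For Tgfb1 this did not hold over the window with flanks of 2 kb, where its percentile was 59.5. The 4 SMAD genes lay above it around the TSS, and 3 of them over the window as well. In all, 5 of 10 genes had a percentile above 50 over the window, with Smad4 at 50 itself and not counted, where 49.8% of all genes do so, and 5 of 10 around the TSS, where the share of all genes was also 49.8%. The counts over all 10 genes thus lay near those of the genome. Whether the roles differ was not tested, because each holds 3 or 4 genes and the list has no replicates.

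**Figure D1:**
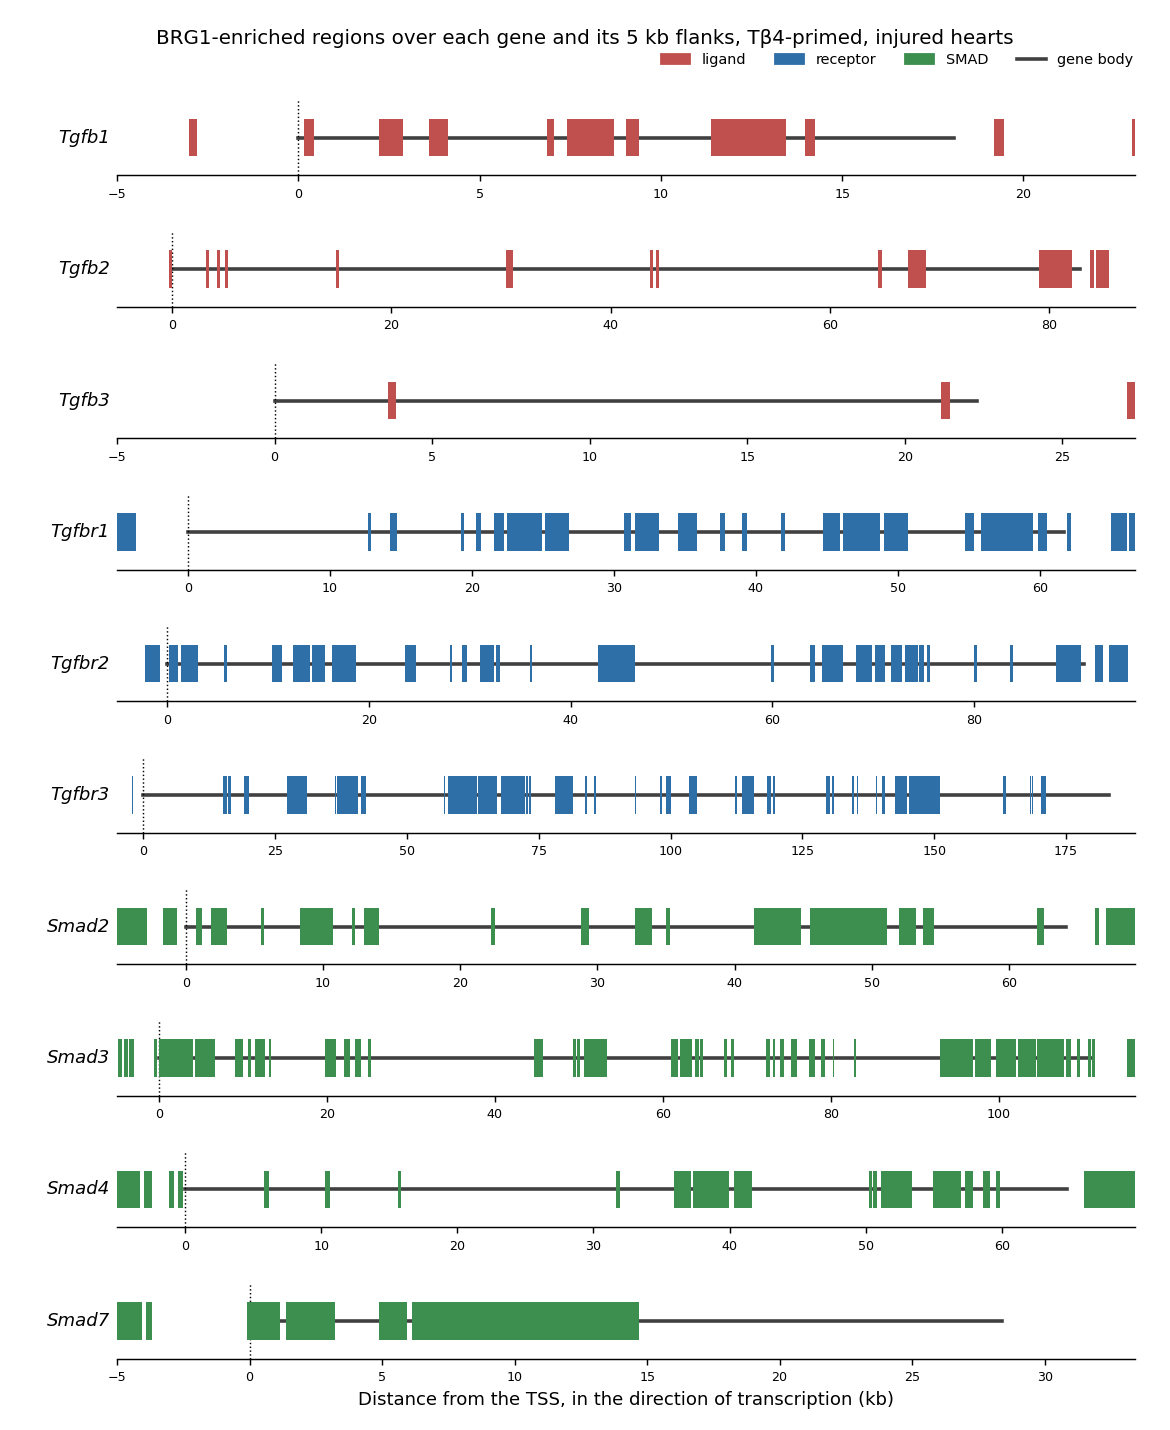
Regions enriched for BRG1 (boxes) in Tβ4-primed, injured hearts along each of the 10 genes (dark line, gene body) and 5 kb on each side, by distance from the TSS in kb in the direction of transcription, with a separate scale for each gene and regions cut at the edge of the window. Tgfb3 has 3 short regions, whereas a single region of 8580 bp lies inside Smad7.

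A region lay directly over the TSS of 2 of the 10 genes, Tgfb2 and Smad7. At Tgfb2 only 2 bases of the region lay in the gene, and at Smad3 the nearest region began 12 bp downstream. Small shifts of region edges would thus change this count. Across the genome a region lay over the TSS of 24.7% of all genes (95% Wilson interval 24.2% to 25.1%) and of 24.2% of protein-coding genes. With the TSS of any annotated transcript in place of the gene start, 4 of 10 genes had such a region, with Tgfbr1 and Smad4 added through starts inside the gene, against 32.8% of all genes. Every one of the 10 genes had a region within 5 kb of its TSS, as did 89.9% of all genes, and in its body, as did 68.4%. The share for the body is not matched for length. The 10 genes span 18076 bp to 183060 bp, and a longer body has more room for a region. No such share was computed for genes of like length.

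Short regions over or upstream of the TSS of 3 genes are shown here as reference sequence, since the list gives positions alone and the sequence shows what lies there. They are the region over the Tgfb2 TSS and the nearest regions upstream of Tgfb1 and Smad3. Each is mm9 sequence read 5′ to 3′ on the strand of the gene. Capitals mark matches, on either strand, to any of 4 motifs. The SMAD-binding element was searched as CAGAC. For AP-1, a dimer of JUN and FOS proteins that often binds beside SMADs, the letters were TGANTCA. The C/EBP motif was searched as TTGCNNAA, and the motif of GATA factors, known for their part in cardiac development, as AGATAA. None of these motifs contains another. No match to the AP-1, C/EBP or GATA motif occurred in these 3 sequences.
Tgfb2, chr1:188529872-188530169, minus strand: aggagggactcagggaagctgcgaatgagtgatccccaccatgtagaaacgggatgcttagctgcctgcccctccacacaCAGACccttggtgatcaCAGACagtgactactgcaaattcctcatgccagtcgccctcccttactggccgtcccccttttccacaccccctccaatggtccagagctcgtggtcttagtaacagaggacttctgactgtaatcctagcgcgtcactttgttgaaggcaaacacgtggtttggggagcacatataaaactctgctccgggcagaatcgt
Tgfb1, chr7:26469000-26469239, plus strand: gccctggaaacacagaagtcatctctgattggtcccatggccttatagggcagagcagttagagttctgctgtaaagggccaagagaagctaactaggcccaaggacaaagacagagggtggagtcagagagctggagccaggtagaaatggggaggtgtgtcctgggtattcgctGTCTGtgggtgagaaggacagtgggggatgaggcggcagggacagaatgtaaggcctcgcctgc
Smad3, chr9:63606060-63606359, minus strand: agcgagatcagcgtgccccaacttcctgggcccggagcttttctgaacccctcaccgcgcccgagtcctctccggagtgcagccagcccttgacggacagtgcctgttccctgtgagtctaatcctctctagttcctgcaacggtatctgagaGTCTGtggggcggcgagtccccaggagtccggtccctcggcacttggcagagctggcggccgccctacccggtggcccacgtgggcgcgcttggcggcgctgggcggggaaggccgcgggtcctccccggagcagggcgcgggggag

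The Tgfb2 sequence holds the 298 bases of its region that lie upstream of the TSS, with 2 matches to the SMAD-binding element and 10 CpG dinucleotides. The Tgfb1 sequence lies in an intron of the neighbouring gene B9d2 and holds 1 SMAD-binding element. The Smad3 sequence gives the 300 bases nearest to the TSS of a region of 330 bp. It holds 1 SMAD-binding element and 27 CpG dinucleotides, at a GC content of 69.3%. Such matches are frequent. Of the 38036 regions of 300 bp in the list, 45.5% held a SMAD-binding element, 17.5% the GATA motif, 13.9% the C/EBP motif and 7.96% the AP-1 motif. Among regions of 240 bp, the SMAD-binding element occurred in 39.0%.

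Tgfb1 encodes TGF-β1, the ligand most studied in cardiac fibrosis. The gene (ENSMUSG00000002603.9) lies on chromosome 7 from 26472021 to 26490096, on the plus strand. Its window held 11 regions, which covered 22.3% of the bases, at the percentile of 45.5. They were numerous but short, with a median length of 300 bp, and 7 of them lay wholly in introns. The longest, of 2070 bp, lay in intron 5 from 26483400 to 26485469. No region touched the coding sequence. Introns were covered by 34.6% and exons by 10.6%. The nearest region to the TSS, of 270 bp, lay 0.159 to 0.428 kb downstream of it, in the 5′ UTR. Around the TSS, 4 regions covered 16.8%, at the percentile of 40.8. The 5 kb upstream held only the 240-bp region printed above, 2.78 kb from the TSS.

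Tgfb2 encodes TGF-β2, the ligand known for its part in the formation of cardiac valves. The gene (ENSMUSG00000039239.8) spans 82807 bp of chromosome 1, from 188447065 to 188529871 on the minus strand. Its 13 regions covered 9.83% of the window, where the median of genes of like length was 28.1% and their 5th percentile 15.1%. This placed Tgfb2 at the percentile of 1. The low share was that of the introns, of which 7.07% was covered, while 36.2% of the exon bases lay in regions. The longest region, of 2970 bp from 188447820 to 188450789, accounts for most of the covered exon bases, as it holds 156 bases of coding sequence and 1510 bases of the 3′ UTR. Regions covered 31.2% of the 5 kb downstream of the gene. At the other end, the region over the TSS was 300 bp long, from 188529870 to 188530169, and nearly all of it lay upstream. Around the TSS, 4 regions covered 10.1%, at the percentile of 28. This percentile was 32.25 with 2 kb and 11 with 10 kb on each side, and 35 with regions within 500 bp joined. The longest stretch of the window without a region measured 20.04 kb, at the percentile of 76.5, against a median of 14.4 kb for genes of like length.

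Tgfb3 encodes TGF-β3, known for its part in the fusion of the palate. The gene (ENSMUSG00000021253.6) lies on chromosome 12 from 87397694 to 87419991, on the minus strand. It had the fewest regions of the 10 genes, 3 in its window, none longer than 300 bp, although Smad7 also had 3 with regions within 500 bp joined. They covered 2.53% of the window, against a median of 26.4% for genes of like length, which placed Tgfb3 at the percentile of 0.5. The longest region, from 87398550 to 87398849, lay over the last part of the coding sequence, with 117 coding bases, and the start of the 3′ UTR, with 183 bases. The region nearest to the TSS lay in intron 1, and the remaining one lay 27.1 kb from the TSS, past the end of the gene and inside the neighbouring gene Ttll5. The 5 kb upstream of the TSS held no region. Around the TSS, 2.70% was covered, at the percentile of 8.75. The percentile was 13.75 with 2 kb and 1 with 10 kb on each side. The longest stretch of the window without a region measured 17.3 kb, at the percentile of 89, against a median of 9.52 kb for genes of like length.

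The surroundings of Tgfb2 and Tgfb3 were covered about as much as the genome, of which 25.8% lay in regions. In the 500 kb on each side of the window, regions covered 25.4% at Tgfb2, 25.3% at Tgfb3 and 22.7% at Tgfb1. For all 10 genes this value lay between 19.4%, at Smad2, and 31.6%, at Tgfbr1. The GC content was 45.5% for the Tgfb2 window and 48.7% for the Tgfb3 window, within the range of 39.9% to 51.7% of the 10 genes. When compared with 50 genes of like GC content, taken from the 1000 closest in length, Tgfb2 and Tgfb3 were both at the percentile of 0. Counted after their values were seen, 2 of 10 genes fell among the lowest 5% of genes of like length, where 4.9% of all genes do so, and 0 of 10 among the highest 5%, against 4.97% of all genes.

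**Figure D2:**
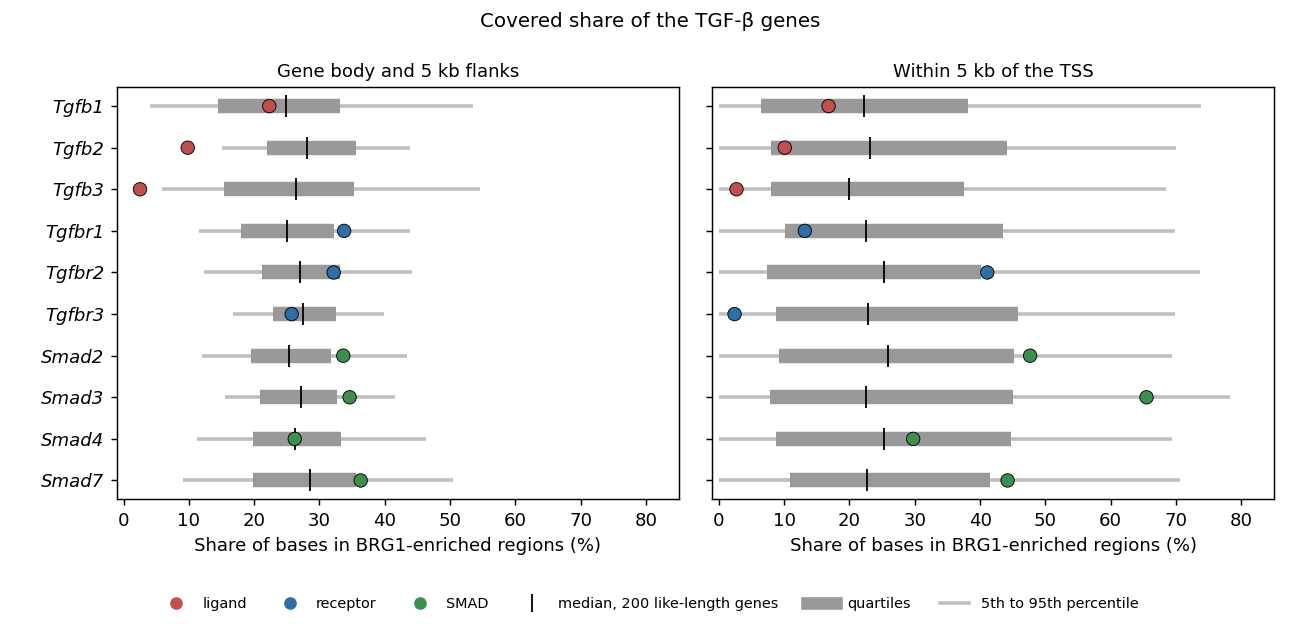
Covered share, in percent of bases, of the window of each gene (left) and of the 5 kb on each side of its TSS (right). Coloured points give the gene, black ticks, thick bars and thin bars the median, the quartiles and the 5th to 95th percentile of the 200 genes of like length. Tgfb2 at 9.83% and Tgfb3 at 2.53% lie to the left of the thin bars, and around the TSS Smad3 has the highest value, 65.5%.

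Of the receptor genes, Tgfbr1 and Tgfbr3 had a lower covered share around the TSS than over the window, and Tgfbr2 a higher one. Tgfbr1 encodes the type I receptor kinase ALK5, which phosphorylates SMAD2 and SMAD3. The gene (ENSMUSG00000007613.9) lies on chromosome 4 from 47366094 to 47427803, on the plus strand. Its 23 regions covered 33.8% of the window, at the percentile of 78.5, and 11 of them were at least 1 kb long. The longest, of 3690 bp from 47421960 to 47425649, lay at the end of the gene over 123 coding bases and 2003 bases of the 3′ UTR, and 51.3% of the exon bases lay in regions. Around the TSS the gene looked different. The nearest region, of 3540 bp from 47358870 to 47362409, ended 3.69 kb upstream, and it was the only one within 5 kb of the TSS, covering 13.2%, at the percentile of 29. This percentile depended on the flank, with 14 for 2 kb and 49.5 for 10 kb on each side of the TSS.

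Tgfbr2 encodes the type II receptor kinase that binds the ligand and activates the type I receptor. The gene (ENSMUSG00000032440.5) spans 90969 bp of chromosome 9, from 115993415 to 116084383 on the minus strand. With 29 regions and 32.2% of the window covered, it lay at the percentile of 73. It was the only receptor gene above the middle around the TSS, where 3 regions covered 41.1%, at the percentile of 76.5. A region of 870 bp began 0.164 kb downstream of the TSS and took in part of exon 1, with 64 bases of the 5′ UTR and 94 coding bases. Another, of 1500 bp, lay 0.737 to 2.24 kb upstream. Both left the TSS itself free. The longest region, of 3690 bp from 116037990 to 116041679, held 360 coding bases, and exons as a whole were covered by 48.6%.

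Tgfbr3 encodes betaglycan, a co-receptor without kinase activity that presents ligand, TGF-β2 above all, to the type II receptor. With 183060 bp on chromosome 5, from 107535589 to 107718648 on the minus strand, it (ENSMUSG00000029287.8) is the longest of the 10 genes. Its 37 regions covered 25.7% of the window, at the percentile of 37.5, and 32 of them lay wholly in introns. The longest, of 5940 bp from 107567550 to 107573489, lay 145 to 151 kb downstream of the TSS and held 672 coding bases. In intron 2, regions of 4560 bp, 3660 bp and 5550 bp followed one another between 57.8 and 72.3 kb from the TSS. Near the TSS the gene was almost bare. A single short region lay upstream and covered 2.40% of the 10 kb around the TSS, at the percentile of 8.5. The percentile was 34 with 2 kb and 1.25 with 10 kb on each side.

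As a group, the SMAD genes had the highest median share around the TSS, 45.9%, against 13.2% for the receptor genes and 10.1% for the ligand genes, although Smad4 lay below Tgfbr2. Smad2, Smad4 and Smad7 all lie on chromosome 18, between 73798663 and 76465385. Whether their shares are related was not tested. The 4 other SMAD genes, taken up further on, had a median of 12.4%, with values from 0 to 52.6%. Smad2 encodes a receptor-activated SMAD that binds DNA poorly on its own. The gene (ENSMUSG00000024563.9) lies on chromosome 18 from 76401234 to 76465385, on the plus strand. Its 19 regions covered 33.6% of the window, at the percentile of 80. The flanks were more densely covered than the gene body. Regions covered 62.9% of the 5 kb upstream and 47.3% of the 5 kb downstream, the latter mainly through the longest region, of 9870 bp from 76468290 to 76478159, most of which lies beyond the window. Exons were covered by 9.27% and introns by 31.5%. The nearest regions left the TSS free, by 0.655 kb on the upstream side, where the region from 76399620 to 76400579 lay, and by 0.726 kb on the other. Around the TSS, 4 regions covered 47.7%, at the percentile of 78.5. The longest stretch without a region was 8.19 kb, against a median of 14.3 kb for genes of like length.

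Smad3 encodes the receptor-activated SMAD that binds the SMAD-binding element directly. The gene (ENSMUSG00000032402.6) spans 111228 bp of chromosome 9, from 63494574 to 63605801 on the minus strand. It had the most regions of the 10 genes, 42, which covered 34.6% of the window, at the percentile of 82. With regions within 500 bp joined, its count was 26, below the 28 of Tgfbr3. Around the TSS, 6 regions covered 65.5%, the highest share of the 10 genes, at the percentile of 89.5. The longest, of 3990 bp from 63601800 to 63605789, began 0.012 kb downstream of the TSS and took in exon 1, with 305 bases of the 5′ UTR and 206 coding bases, and the start of intron 1. The region of 330 bp printed above lay 0.259 kb upstream. With this joining, the TSS of Smad3 was covered too, and 3 of 10 genes had a region over it. Exons were covered by 47.7% and introns by 34.3%.

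Smad4 encodes the common partner of the activated SMADs. The gene (ENSMUSG00000024515.7) lies on chromosome 18 from 73798663 to 73863434, on the minus strand. Its 19 regions, or 11 once joined within 500 bp, covered 26.2% of the window, at the percentile of 50, or of 32 with flanks of 2 kb. Outside the gene the shares were high, with 59.5% of the 5 kb upstream and 74.5% of the 5 kb downstream, where the longest region, of 5460 bp from 73791930 to 73797389, began and reached beyond the window. Exons were covered by 5.66%, the lowest value of the 10 genes. Around the TSS, 4 regions covered 29.7%, at the percentile of 59.5, and all of them lay upstream. The nearest, of 360 bp from 73863570 to 73863929, ended 0.136 kb from the TSS.

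Smad7 encodes the inhibitory SMAD, itself induced by TGF-β, which competes for the receptor and recruits SMURF ubiquitin ligases to it. The gene (ENSMUSG00000025880.5) lies on chromosome 18 from 75527183 to 75555589, on the plus strand. It had only 6 regions, or 3 with regions within 500 bp joined, but 5 of the 6 regions were at least 1 kb long, and together they covered 36.3% of the window, the highest share of the 10 genes, at the percentile of 77. A region of 1260 bp, from 75527070 to 75528329, lay over the TSS, with 113 bases upstream of it and 1147 bases in the 5′ UTR. Farther into the gene followed regions of 1830 bp and 1080 bp and then the longest, of 8580 bp from 75533310 to 75541889, which lay 6.13 to 14.7 kb from the TSS. Beyond it, the remaining part of the gene and the 5 kb downstream were without a region, a stretch of 18.7 kb. Around the TSS, 5 regions covered 44.2%, at the percentile of 78.

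**Figure D3:**
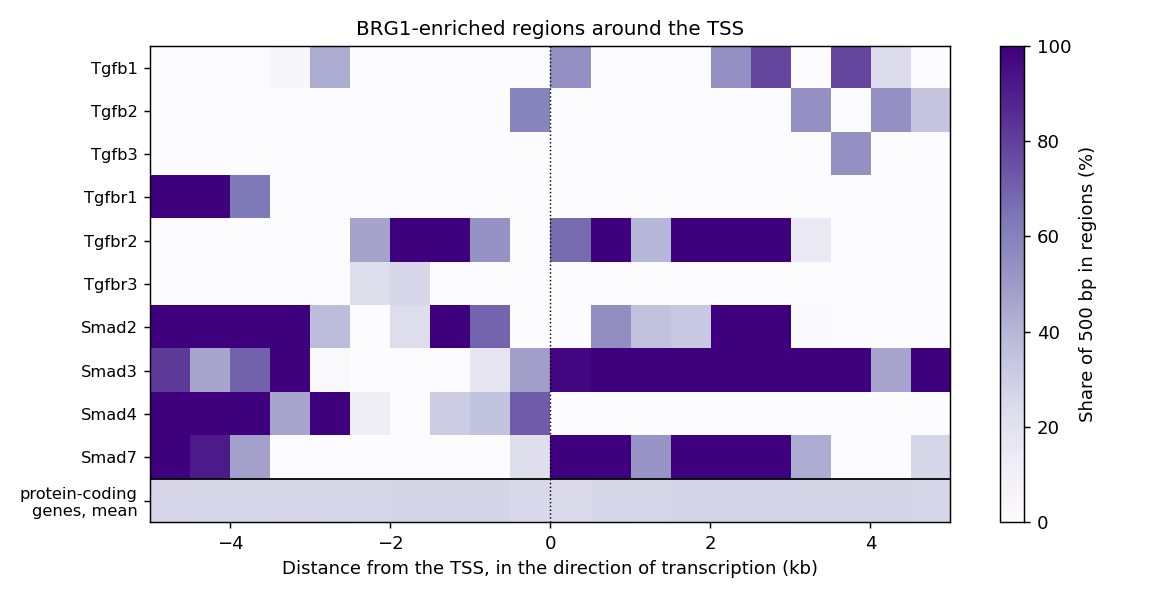
Covered share of each 500 bp from 5 kb upstream to 5 kb downstream of the TSS, in percent (colour), for each of the 10 genes and, in the last row, as the mean of the protein-coding genes. The mean of the protein-coding genes is nearly even, from 24.8% to 27.7%, whereas Smad3 is covered to 97.6% or more from the TSS to 4 kb downstream, and Tgfb3 and Tgfbr3 are nearly empty.

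In the 500 bp upstream of the TSS, regions were present at 4 of the 10 genes, against 35.8% of all genes, with 59.6% at Tgfb2, 48.4% at Smad3, 72.0% at Smad4 and 22.6% at Smad7. In the 500 bp downstream, they were present at 5 genes, against 35.3% of all genes, with 54.0% at Tgfb1, 67.2% at Tgfbr2, 97.6% at Smad3, 100% at Smad7 and 0.4% at Tgfb2. The mean over the 10 genes was 20.3% upstream and 31.9% downstream, against 25.5% and 24.8% for protein-coding genes. Tgfb3, Tgfbr1, Tgfbr3 and Smad2 had no region in either stretch.

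Taking the bases of all 10 genes together, 32.1% of the exon bases and 26.6% of the intron bases lay in regions, against 26.6% and 27.5% for all protein-coding genes. The single genes ranged widely, with exon shares from 5.66% at Smad4 to 51.3% at Tgfbr1 and intron shares from 1.43% at Tgfb3 to 44.0% at Smad7. Of the 202 regions, 139 lay wholly in introns, 23 held coding bases and 30 lay wholly outside the gene. Their median length was 615 bp, against 600 bp in the whole list, and 37.1% of them were at least 1 kb long, against 36.0%. The median length differed with the gene, from 270 bp at Tgfb3 and 300 bp at Tgfb1 and Tgfb2 to 960 bp at Tgfbr2 and Smad2 and 1545 bp at Smad7. The ligand genes thus had short regions as well as, in Tgfb2 and Tgfb3, sparse ones.

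Taking all windows together, base composition differed little between the regions and the rest of the windows. GC content was 45.6% inside and 45.8% outside regions, and CpG dinucleotides occurred at 13.0 per kb inside and 12.9 per kb outside, against 7.92 and 8.49 per kb for the genome. Smad7 had the most CpG inside its regions, 29.6 per kb, against 21.5 per kb in the rest of its window. Single genes went both ways. Tgfbr1 had 5.08 per kb inside and 8.25 per kb outside, and Smad2 8.18 and 11.4 per kb. The SMAD-binding element was as frequent inside as outside regions, with 2.55 matches per kb and 2.52 matches per kb, against 2.21 and 2.22 per kb for the genome. The AP-1 motif occurred 85 times inside regions, or 0.381 times per kb, and at 0.298 per kb in the rest of the windows, against 0.328 and 0.314 per kb for the genome. At Tgfb3, Tgfbr1 and Smad2 it was sparser inside than outside, and at the other genes denser. The C/EBP motif was sparser inside, at 0.372 per kb, than outside, at 0.491 per kb, with 0.505 and 0.514 per kb for the genome. At some genes, such as Smad4, it was denser inside, at 0.561 per kb against 0.308 per kb. For the GATA motif the values were 0.637 and 0.611 per kb, against 0.775 and 0.735 per kb. None of these differences was tested.

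A further 43 genes of the pathway, listed by role, were examined in the same way. A region lay over the TSS of 10 of them, and over the TSS of any transcript of 20 of them, against the shares of 24.7% and 32.8% for all genes given above. Over the window, 25 of 43 genes exceeded the middle of genes of like length, and 21 of 43 did so around the TSS, against 49.8% of all genes in both cases. Their median covered share was 28.8% over the window and 21.9% around the TSS, close to the values of the 10 genes. Counted after their values were seen, 3 of 43 genes fell among the lowest 5% of genes of like length (Smad5, Map3k7 and Col1a1) and 3 of 43 among the highest 5% (Smurf2, Bambi and Col3a1), against 4.9% and 4.97% of all genes.

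The 10 genes of latency and activation had a median covered share of 26.3%. Ltbp3, whose product binds latent TGF-β in the matrix, had the highest, 44.5% at the percentile of 90, with 13 regions, 1 of them over the TSS. Lrrc32, which encodes GARP, the anchor of latent TGF-β on the cell surface, had the lowest, 5.62% at the percentile of 10.5. Among the 10 related receptors of activins, bone morphogenetic proteins and TGF-β, with a median of 29.1%, Acvr2b, a type II activin receptor, had the highest share, 42.1% at the percentile of 89. Endoglin (Eng), a co-receptor of endothelial cells, had the lowest over its window, 20.6% at the percentile of 29, but a region lay over its TSS and 70.8% of the bases around it were covered, at the percentile of 93.

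Of the 4 other SMAD genes, 0 had a region over the TSS, against 24.7% of all genes, and 1 had one over the TSS of any transcript, against 32.8%. Smad6, the inhibitory SMAD of bone morphogenetic protein signalling, had the highest covered share, 29.5% at the percentile of 64.5, but no region within 5 kb of its TSS. Smad5, which carries bone morphogenetic protein signals, had the lowest, with 4 regions that covered 4.90% of its window, at the percentile of 0.5. Among the 4 genes of adaptors and kinases, Traf6, a ubiquitin ligase, had the highest share, 29.6% at the percentile of 68. Map3k7, which encodes the kinase TAK1 of the branch that does not pass through SMADs, had the lowest, with 10 regions of a median length of 255 bp that covered 5.54%, at the percentile of 1.

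The 7 inhibitors had the highest median of the role groups, 40.5%, with 6 of them above the middle of genes of like length over the window and 5 around the TSS, against 49.8% of all genes in both cases. This was not tested. Bambi, a pseudoreceptor without a kinase domain, had the highest share of all 43 genes, with 2 regions that covered 65.8% of its window and 97.9% of the bases around its TSS. Pmepa1, which holds back the phosphorylation of SMAD2 and SMAD3, had the lowest, 16.4% at the percentile of 11. The 8 target genes ranged most widely. Col3a1, which encodes the chain of type III collagen, had 10 regions that covered 54.97% of its window, at the percentile of 98, with a region over its TSS. Col1a1, which encodes a chain of type I collagen, had 0 regions in its window of 26.8 kb, although 24.8% of the surrounding 500 kb on each side was covered.

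**Figure D4:**
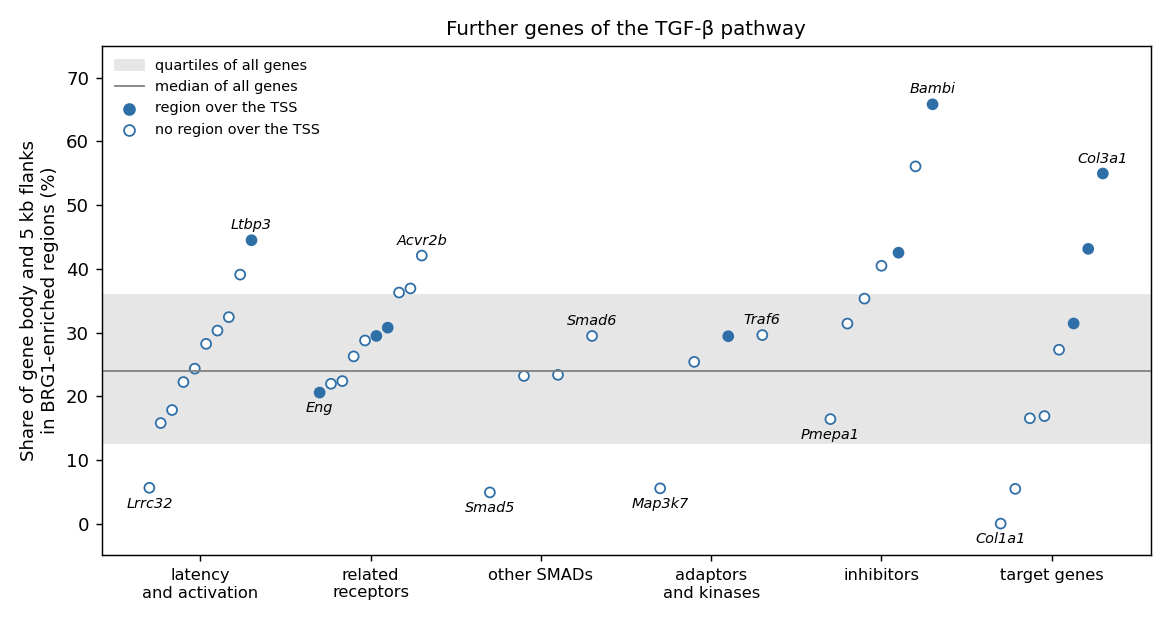
Covered share of the gene body and 5 kb flanks, in percent, of the 43 further genes, grouped by role and ordered within each group. Filled points have a region over the TSS, and the band and line give the quartiles and the median of all genes. Inhibitors reach from 16.4% at Pmepa1 to 65.8% at Bambi, and target genes from 0 at Col1a1 to 54.97% at Col3a1.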

How the data were processed

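The authors made BRG1 ChIP and input libraries in duplicate for both priming groups. They mapped reads with Bowtie 1.0.0 to mm9 and called regions with MACS2 2.0.10, per the submitters' processing notes. The deposited list holds a start and an end per region, in bp, for Tβ4-primed hearts against input, pooled over the duplicates. How these were combined is not given in the sources used here. Per the methods, MACS2 was run with bdgcomp, but the list's name carries a cutoff and looks like output of bdgdiff, which contrasts conditions, and the call itself could not be settled. Without counts, scores or replicates, no test between samples was possible and the depth is unknown.

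Regions were counted over GENCODE genes of mm9 (chromosomes X, Y and the autosomes) with Python 3.11.15, numpy 2.4.6, pandas 2.3.3 and pysam 0.24.0. Positions count from 1. At least 1 bp of overlap was required, and a tie counted 0.5 in percentiles. Wilson intervals are at 95% and cover counting error alone. Intron numbers follow the transcript with the longest coding sequence. Counting was tested on simulated data. All 10 genes are named, and of the 43 further genes those with the highest and lowest covered share in each role group, besides Smurf2, named after its value was seen, as were a few further regions. At each of the 10 genes, regions over the TSS, the longest and the nearest to the TSS are named. The members and lists were chosen with earlier results of these data known. Further sequences of regions are not reported here. The RefSeq promoter table, of another build, was not used. Alternatives changed the joining of regions, the flanks, the comparison genes, the TSS, the overlap, long regions and unsequenced bases.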

Additional observations from a re-analysis of the deposited data

How the results depend on the processing

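No paired analysis was possible because the list carries no values per replicate, and for the same reason no replicate could be left out. The number of the 10 genes above the middle of genes of like length was 5 or 6 over the window and 5 around the TSS under each alternative run. Tgfb2 and Tgfb3 reached at most the percentiles of 1.5 and 2 over the window. Around the TSS, the 4 SMAD genes were above 50 under each alternative, Smad4 with the lowest value, 52.5, and the 3 ligand genes below it, with 42 at most. There, the percentiles of Tgfbr1 and Tgfbr3 moved from 14 to 49.5 and from 1.25 to 34 with the flank. Over the window, Smad4 moved between 32 and 56.5 and Tgfb1 between 40 and 59.5. With the TSS of any transcript, genes with a region over the TSS rose from 2 to 4 of 10, and from 10 to 20 of the 43 further genes, since more starts were counted. The median covered share of the 10 windows was 31.4% with regions within 500 bp joined, 28.4% with flanks of 2 kb and 30.6% with flanks of 10 kb. Around the TSS it was 26.3% with joining, 12.4% with 2 kb and 26.4% with 10 kb. Without regions over 100 kb, or without unsequenced bases, both medians were the same to 3 digits. Of 70 single percentiles over the window, 58 stayed within the 95% Wilson interval of the main value, as did 56 of 70 around the TSS, and 47 of 50 counts of regions stayed within 1.5 times, all but those of Smad3, Smad4 and Smad7 with joining. The unknown depth limits all values, as weak regions may be missing from the list. The list may also hold regions without BRG1 binding. Its regions covered 25.8% of the genome. Over protein-coding genes the mean share was 24.8% in the 500 bp downstream of the TSS, the lowest value within 5 kb of it. How specific the regions are for BRG1 was not tested.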
